A study of Mus musculus with 576 samples.

Results

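The cells described here are the control cells of culture day 2, divided by their count of Kit, the gene of the stem cell factor receptor CD117. A cell with Kit at 50 CPM or more (the gene's count per 1000000 gene counts of the cell) is called Kit-high, and a cell under 50 CPM Kit-low. Of the 563 cells of the series that passed the filters, 96 came from this plate, and 42 of them were Kit-high and 54 Kit-low. The Kit-high share was 43.8% (exact Clopper-Pearson 95% interval 33.6% to 54.3%, counting error only). The classes were chosen by the measured Kit CPM of these same cells, and which genes are named was chosen on the same contrast, so every day 2 difference below is a description, without a test.

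The cells were taken from livers of C57/Bl6J mouse embryos at day 14.5, depleted of cells with CD41, CD16/32, Ter119, Sca-1, CD11b, CD3e, Ly-6G or CD45R, stained for CD24, CD71 and CD117, and sorted to enrich BFU-E, the burst-forming progenitors of red cells. Both classes then shared a 48 h culture in SFEM2 medium holding erythropoietin at 2 U/mL, IGF1 at 40 ng/mL and SCF (the ligand of the Kit receptor) at 100 ng/mL, without dexamethasone. The same design gave 5 other plates, controls of days 1 and 3 and 3 plates with 100 nM dexamethasone, a synthetic glucocorticoid. There was 1 plate of 96 wells for each day and treatment, and the labels do not say how many animals or cultures lie behind a plate, so p-values across plates reflect how these plates vary, and that variation may be technical.

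Kit is a receptor tyrosine kinase that SCF activates at the surface of blood progenitors, where it feeds the PI3 kinase, RAS and SRC family pathways and supports survival and division. Early red cell progenitors depend on it, and its gene is shut off as they turn to making haemoglobin, a switch in which the transcription factor GATA1 is known to replace GATA2. Erythropoietin, acting through its own receptor, JAK2 and STAT5, carries the cells through the later steps. The late programme fills the cell with globin, heme and the spectrin-based membrane skeleton, while ribosome production winds down.

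Kit (chr5:75574916-75656722, plus strand, GRCm38) ranged over 52.5 to 798 CPM in Kit-high cells with a median of 212, and over 0 to 41.5 CPM in Kit-low cells with a median of 0.998. Kit is stained as CD117 in the sort that preceded the culture. No Kit count was found in 21 of the Kit-low cells. The cells nearest the threshold lay at 52.5, 52.9, 55.1 and 69.5 CPM on its upper side and at 25.9, 31.8, 39.2 and 41.5 CPM on its lower side. Only 9 Kit-high cells were under 100 CPM and 4 Kit-low cells were over 25 CPM, so few cells sat near the line. The classes also differed in depth: Kit-high cells held a median of 1466796 counts and 8350 genes, Kit-low cells 855442 counts and 6456.5 genes. When each cell was thinned to 500000 counts, which left out 13 Kit-low cells, the medians were 7563.5 and 6028 genes, so the higher gene number of Kit-high cells remained at equal depth. The mitochondrial share of counts was 3.43% and 3.47%. Kit-high cells were spread over the plate, with 2 to 6 among the 8 cells of each i7 index and 3 to 9 among the 12 cells of each i5 index. The sums compared below held 59590779 counts over Kit-high and 53624771 over Kit-low cells.

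With the sums of the classes set against each other, 1078 of 7941 genes with a mean of at least 10 CPM were at least 2-fold higher in Kit-high cells (13.6%) and 679 were at least 2-fold lower (8.55%). The ratios here and below are log2((CPM + 0.5)/(CPM + 0.5)) of Kit-high over Kit-low sums, and 2-fold means a log2 ratio of 1. A gene can pass the 10 CPM filter through 1 class alone, which by itself favours a ratio on the side of that class. The median gene had a log2 ratio of 0.13, and 4576 of the 7941 genes had a positive ratio and 3365 a negative one. Scaling by TMM instead, which weighs against the effect of a few abundant genes, moved the median to -0.06 and the counts to 784 higher and 908 lower, so the balance of higher and lower genes depends on the scaling. Group medians below that lie near 0 should be read against that shift of the baseline, and where a group's sign turns with it this is said.

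Red cell membrane genes were far lower in Kit-high cells. Slc4a1, which encodes band 3, the anion exchanger and chief anchor of the red cell membrane, ranged over 0 to 4628 CPM in Kit-high cells with a median of 17.2, and over 2.82 to 19697 CPM in Kit-low cells with a median of 5574. No Kit-high cell reached the Kit-low median, and 31 of the 54 Kit-low cells were above every Kit-high cell. Over the summed counts the level was 124 CPM in Kit-high cells (exact Poisson 95% interval 121 to 127) and 5081 in Kit-low cells (5062 to 5100), a log2 ratio of -5.35, the lowest of 5908 genes with a mean of at least 20 CPM and no cell holding over 20% of the higher class's counts. Of the 24 membrane and surface genes with a mean of at least 10 CPM, 20 were at least 2-fold lower in Kit-high cells and 0 higher. The shares of all genes were 8.55% and 13.6%, and the median log2 ratio of the 24 was -1.51.

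The members of the membrane skeleton were lower together but to unequal extents. Epb42 (protein 4.2, which ties band 3 to the skeleton) had 53.3 CPM in Kit-high and 481 in Kit-low cells. Dmtn (dematin, which bundles actin) had 40.6 and 309 CPM, a log2 ratio of -2.91. The beta spectrin gene Sptb and the ankyrin gene Ank1 had log2 ratios of -1.76 and -1.61. Tmod1 (tropomodulin, which caps actin filaments) had a median of 74.02 CPM over Kit-high cells, none of which reached the Kit-low median of 372 CPM. The blood group genes Rhd and Kel had log2 ratios of -2.44 and -1.72. Aqp1 (a water channel), Car1 (a carbonic anhydrase) and the adducin gene Add2 stayed within 2-fold, at -0.09, 0.24 and -0.57, as did Slc2a1, a glucose transporter, at -0.90. The sort antigen CD24 is encoded by Cd24a, which had 1497 CPM in Kit-high and 3744 CPM in Kit-low cells.

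**Figure D1:**
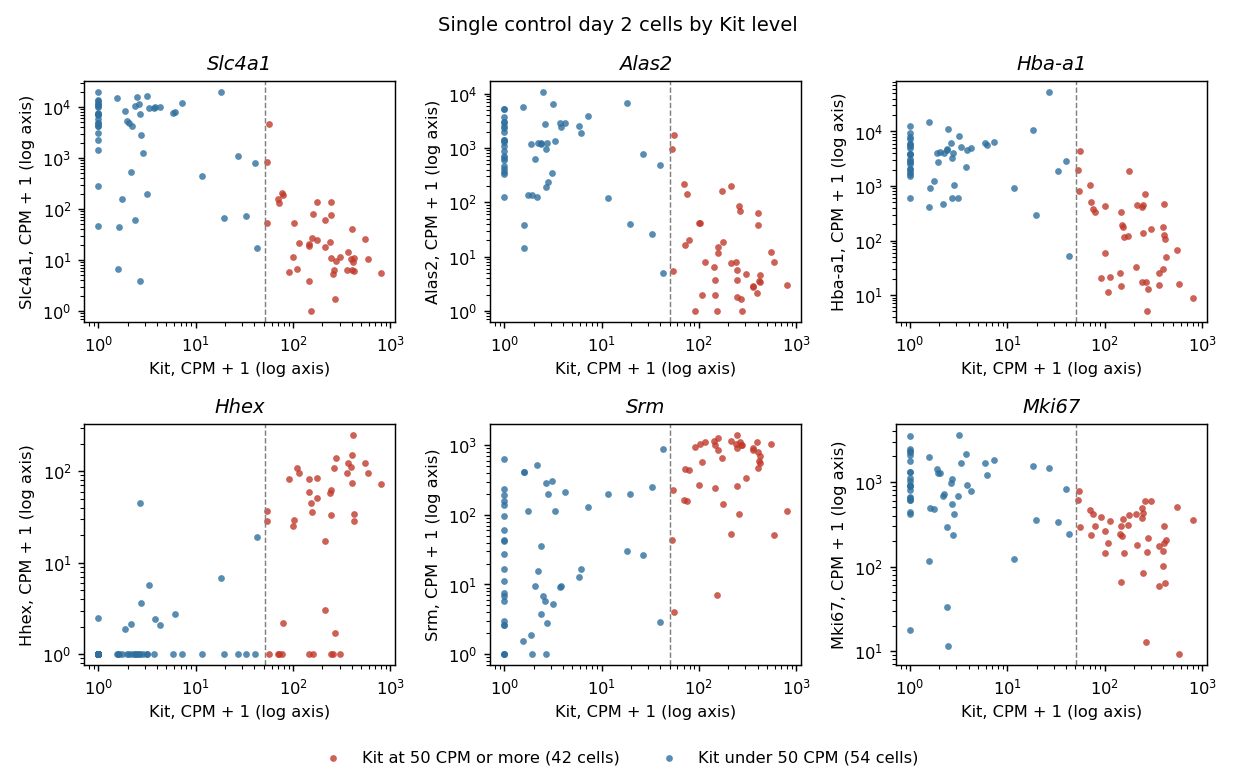
Each point is 1 control day 2 cell, with Kit on the x axis and another gene on the y axis, both as CPM + 1 on log axes, red for the 42 Kit-high cells and blue for the 54 Kit-low cells; the dashed line is the threshold of 50 CPM. Slc4a1, Alas2 and Hba-a1 drop across the line and Hhex and Srm climb, with a few blue cells low in Slc4a1 and 2 red cells near the line high in it.

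Globin transcripts were lower too. Hba-a1 (an adult alpha globin) ranged over 4.11 to 4408 CPM in Kit-high cells with a median of 123, and over 50.6 to 53017 CPM in Kit-low cells with a median of 3848. The sums were 359 and 3947 CPM. Of the Kit-low cells 53 of 54 lay above the Kit-high median, and 1 Kit-high cell lay above the Kit-low median. The 4 globin genes with a mean of at least 10 CPM, Hba-a1, Hba-a2, Hbb-bs and Hbb-bt, were all at least 2-fold lower in Kit-high cells. Of all genes 8.55% were, and the median log2 ratio of the 4 was -3.21. Reads of Hba-a1 and Hba-a2, and of Hbb-bs and Hbb-bt, can be exchanged between near-identical copies, so the split within each pair is uncertain.

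Heme synthesis was lower at nearly every step. Alas2, the red cell form of the first and rate-setting enzyme, had a median of 6.74 CPM and a range of 0 to 1755 in Kit-high cells, against a median of 1164 CPM and a minimum of 4.05 in Kit-low cells. The summed levels were 68.03 and 1489 CPM, a log2 ratio of -4.44. Its housekeeping counterpart Alas1 went the other way, with 38.6 CPM in Kit-high and 12.5 CPM in Kit-low cells. Of the later enzymes, Alad, Uros, Urod, Ppox and Fech had log2 ratios between -1.84 and -1.66, while Cpox, the step before Ppox, was at -0.92. In all, 10 of the 12 heme genes were at least 2-fold lower and 1, Alas1, was higher, against 8.55% and 13.6% of all genes.

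Iron genes leaned to the Kit-low cells, with 11 of 13 on the lower side in Kit-high cells and a median log2 ratio of -0.71. Slc25a37 (mitoferrin 1, which carries iron into mitochondria) had 131 CPM in Kit-high and 1738 CPM in Kit-low cells. Tfrc, the transferrin receptor CD71 that was also stained in the sort, had 2470 and 5108 CPM. Of 13 iron genes 4 were at least 2-fold lower and 0 higher, against 8.55% of all genes lower, among them Hmox1, for which 1 Kit-low cell held 44.7% of the Kit-low counts. The ferritins Fth1 and Ftl1 were at -0.82 and -0.71, and may share reads with their copies elsewhere in the genome.

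Genes of the final remodelling of the cell, in which organelles and unneeded proteins are removed, were lower in Kit-high cells for 15 of 16 members, with a median log2 ratio of -1.10. Trim10, an E3 ligase gene of the red cell lineage, had 52.8 CPM in Kit-high and 563 CPM in Kit-low cells. Ypel4 had 3.16 and 59.9 CPM. Prdx2, an abundant antioxidant enzyme of red cells, had 821 and 2212 CPM, and 1 Kit-high cell lay above the Kit-low median. Tmcc2 had 2.32 CPM in Kit-high and 202 in Kit-low cells, but 30.8% of the Kit-low counts came from 1 cell. Bnip3l, which marks mitochondria for removal, and Xpo7, a nuclear exportin, were nearly level at -0.11 and -0.12. In this list 8 of 16 genes were at least 2-fold lower and 0 higher, against 8.55% and 13.6% of all genes.

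The master regulators of the lineage differed far less than the genes they are known to drive. Gata1 had a median of 307 CPM in Kit-high cells and 566 CPM in Kit-low cells, and Klf1, the activator of adult beta globin, 358 and 636 CPM. The ranges overlapped widely, from 2.61 to 942 CPM in Kit-high and from 77.8 to 2223 CPM in Kit-low cells for Gata1. Their summed log2 ratios were -0.68 and -0.81. Gfi1b, a repressor needed for red cell maturation, was at -0.16 and Bcl11a, a repressor of embryonic globin genes in mouse, at 0.37. Sox6, Klf3 and E2f2 had the largest ratios of the list, -2.25, -1.90 and -1.89. Of these 18 factors 6 were at least 2-fold lower and 0 higher, against 8.55% and 13.6% of all genes, and the median was -0.62.

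Progenitor factors ran the other way. Hhex, a homeobox gene of early blood progenitors, was found in 33 of 42 Kit-high cells with a median of 40.3 CPM, and in 11 of 54 Kit-low cells with a median of 0. Its highest cell held 247 CPM among the Kit-high and 43.97 CPM among the Kit-low cells, and 21 Kit-high cells lay above every Kit-low cell. The sums were 56.1 and 2.01 CPM, a log2 ratio of 4.49, the highest of the same 5908 genes. Gata2, Myb, Ikzf1 and Etv6, which act in stem and progenitor cells, had log2 ratios of 1.15, 1.55, 1.22 and 1.63. Runx1 and Lyl1 were at -0.21 and -0.64. Of 20 listed progenitor factors 10 had a mean of at least 10 CPM over all cells. Hhex and Meis1, with Kit-low sums of 2.01 and 0.0932 CPM, passed that filter only through Kit-high cells. A higher ratio was thus built in for them. Of the 10 factors 7 were at least 2-fold higher and 0 lower, against 13.6% and 8.55% of all genes, with a median of 1.39. That median was -0.02 when cells with at least 2 megakaryocyte, myeloid or mast cell markers at 10 CPM or more were left out, which kept 8 Kit-high and 20 Kit-low cells. No cell of control day 2 carried 2 myeloid or 2 mast cell markers, so megakaryocyte markers alone set which cells were left out, in 34 Kit-high and 34 Kit-low cells.

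Meis1 of that list and the surface markers Flt3 and Cd34 rested largely on 2 cells that stood apart, picked out after the values were seen. They were Kit-high, with Kit at 583 and 798 CPM, and had Gata1 at 2.74 and 2.61 CPM, whereas 93 of the 96 cells had Gata1 of at least 51.6 CPM. Flt3 (a receptor of lymphoid and myeloid progenitors) stood at 2271 and 530 CPM in them, and at no more than 5.78 CPM in those 93 cells. Cd34 stood at 684 and 378 CPM, against a maximum of 1.18 CPM, and Meis1, a stem cell factor, at 951 and 269 CPM. The second of these cells also had Mpo, the granule enzyme of neutrophil precursors, at 163 CPM. A further Kit-high cell had Gata1 at 15.2 CPM, Kit at 99.1 CPM, 12787 genes and a mitochondrial share of 8.59%, where the 93 cells had at most 9550 genes and 6.06%. Without these 3 cells Flt3 had 0.364 CPM in Kit-high and 0.0746 CPM in Kit-low cells, in place of 41.8 CPM in Kit-high cells with them, and Meis1 3.88 and 0.0932 CPM. Of the surface markers of progenitors 3 of 11 were at least 2-fold higher, Flt3, Cd34 and Cd63, against 13.6% of all genes. All 3 passed the 10 CPM filter only through Kit-high cells, and 1 cell held 66.6%, 53.4% and 66.7% of their Kit-high counts. The top cell of Cd63, at 550 CPM, had Kit under 200 CPM and so was not 1 of the 2. Without the 3 cells Cd63 still had 8.28 CPM in Kit-high and 2.74 CPM in Kit-low cells, a log2 ratio of 1.44. The cytokine receptor genes Csf2rb and Csf2rb2 were at least 2-fold lower, as were 8.55% of all genes. They were at -1.25 and -2.15, with 66.1% and 51.1% of their Kit-low counts in 1 cell. The median of these 11 genes was 0.40 with the 3 cells and -0.09 without them. Hhex, Slc4a1, Alas2 and Srm barely moved without the 3 cells, to log2 ratios of 4.50, -5.25, -4.36 and 2.37.

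**Figure D2:**
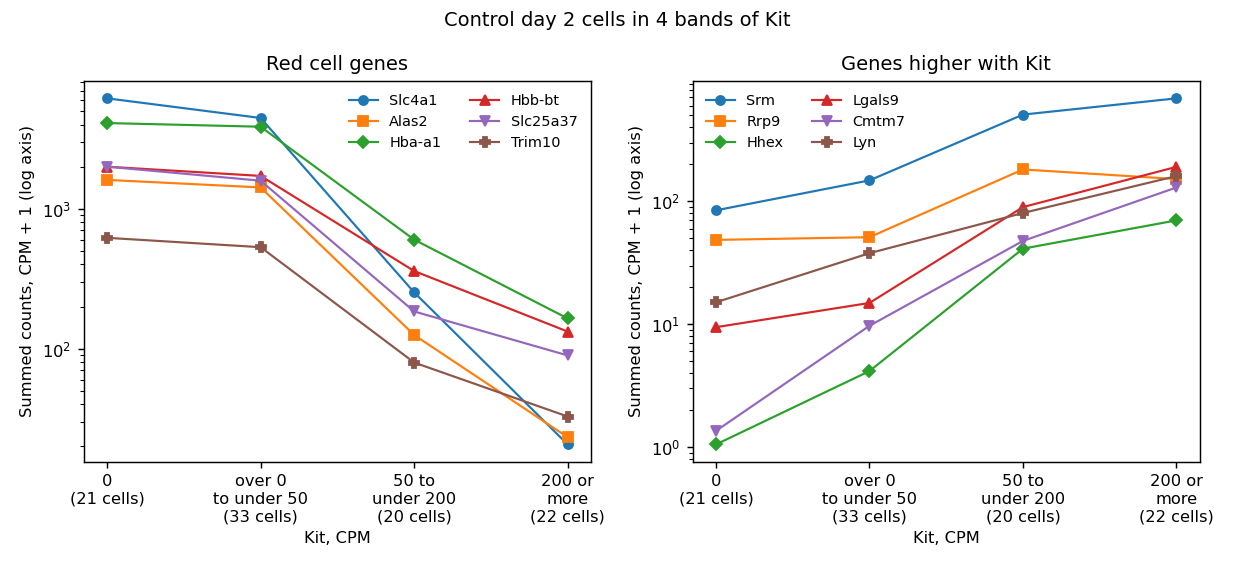
Summed CPM + 1 on a log axis for 12 genes in 4 bands of Kit, ordered from no Kit count to 200 CPM or more, with the number of cells under each band. The red cell genes on the left are nearly flat over both bands under 50 CPM and drop above it, and the genes on the right climb from band to band except Rrp9 at the top. The bands are unequal steps of Kit, with median Kit of 0, 1.85, 104 and 329 CPM.

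The steps along Kit were uneven. Cells were put in 4 bands, with no Kit count (21 cells), over 0 and under 50 CPM (33 cells), from 50 to under 200 CPM (20 cells) and at 200 CPM or more (22 cells). The median of Slc4a1 was 7034, 4930, 38.7 and 9.67 CPM in this order. That of Alas2 was 1289, 1158, 14.9 and 3.76 CPM. The red cell genes thus differed far less between the bands under 50 CPM than between the middle bands. Kit itself had medians of 0, 1.85, 104 and 329 CPM in these bands, so the 2 lower bands hardly differed in Kit either. Hhex had medians of 0, 0, 31.6 and 66.5 CPM, and Srm of 15.4, 25.9, 447 and 818 CPM. Gata1 had smaller steps, with medians of 603, 539, 396 and 280 CPM. Within the 42 Kit-high cells alone the Spearman rho with Kit was -0.51 for Slc4a1, 0.46 for Hhex, 0.62 for Cdca7 (a MYC-responsive chromatin factor) and 0.19 for Srm, given as a description.

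Few cells were mixed by levels of 500 CPM for Slc4a1 and 250 CPM for Alas2, chosen after the values were seen. Slc4a1 under 500 CPM together with Alas2 under 250 CPM was found in 40 of 42 Kit-high cells and 9 of 54 Kit-low cells. Both genes at or above those levels were found in 2 Kit-high and 39 Kit-low cells. The 2 Kit-high cells had Kit at 52.5 and 55.1 CPM, at the very edge of their class. The second of them had 4628 CPM of Slc4a1, 3.06 CPM of Srm and no Hhex count. The reverse case at the line was the Kit-low cell with 41.5 CPM of Kit, which had 16.2 CPM of Slc4a1, 872 CPM of Srm and 18.2 CPM of Hhex. Most of the 9 Kit-low cells with little Slc4a1 and Alas2 were far from the line, since their median Kit was 1.69 CPM. The remaining 6 Kit-low cells were over 1 level and under the other.

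Genes of ribosome production were higher in Kit-high cells. Of 25 genes of MYC, nucleolus and ribosome assembly, 16 were at least 2-fold higher in Kit-high cells and 0 lower, against 13.6% of all genes. The median log2 ratio was 1.10. Srm (spermidine synthase, a MYC target) had a median of 624 CPM and a range of 3.06 to 1390 in Kit-high cells, and a median of 20.8 CPM and a range of 0 to 872 in Kit-low cells. The sums were 607 and 124 CPM, and 16 Kit-high cells lay above every Kit-low cell. Myc itself had 333 and 160 CPM. Rrp9 and Wdr43 of the small ribosomal subunit processome had log2 ratios of 1.73 and 1.496, and Polr1b, a subunit of RNA polymerase I, 1.55. Ncl (nucleolin) and Npm1 (nucleophosmin) had 3512 and 2968 CPM in Kit-high cells and 1605 and 1389 CPM in Kit-low cells. Odc1, the enzyme before Srm in polyamine synthesis, was the exception at -0.69.

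Division genes split by phase. Of 28 S phase genes 0 were past 2-fold in either direction, against 22.1% of all genes, and the median was -0.07. Of 27 genes of G2 and mitosis 16 were at least 2-fold lower in Kit-high cells and 0 higher. The shares of all genes were 8.55% and 13.6%, and the median of the 27 was -1.05. Mki67, the proliferation antigen Ki-67, had a median of 281 CPM and a range of 8.21 to 773 in Kit-high cells, and a median of 889 CPM and a range of 10.4 to 3567 in Kit-low cells. No Kit-high cell reached the Kit-low median. Nusap1 and Ube2c, which act at the spindle and in the exit from mitosis, had log2 ratios of -1.94 and -1.75. Cdc20 was level at -0.11. Cdc25b, a phosphatase that opens mitosis, had 35.5 CPM in Kit-high and 626 CPM in Kit-low cells. The cyclin gene Ccnd2, a target of growth factor signals in G1, went the other way, with medians of 526 and 85.4 CPM.

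Genes that restrain the cell cycle were mixed, with the larger ratios on the lower side. Cdkn1a (p21) had 329 and 642 CPM, Cdkn1b (p27) 16.1 and 50.8 CPM, and Btg2 137 and 429 CPM. Mxd1, a partner of MAX that opposes MYC, had 76.8 and 298 CPM. Of 10 such genes 4 were at least 2-fold lower and 0 higher, against 8.55% and 13.6% of all genes, and the median was -0.84. Cdkn2d had a ratio of -3.01, with 23.3% of the Kit-low counts in 1 cell.

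Downstream of the receptor, the genes of Kit signalling were uneven. Lyn, a SRC family kinase, had a median of 126 CPM in Kit-high and 1.17 CPM in Kit-low cells, and sums of 124 and 28.5 CPM. Ptpn6 (the phosphatase SHP-1, which dampens Kit), Pik3cd (a catalytic subunit of PI3 kinase), Vav1, Inpp5d (SHIP1) and Cbl (an E3 ligase that removes the receptor) had log2 ratios of 2.15, 2.07, 1.71, 1.23 and 1.13. The PI3 kinase gene Pik3cg had 41.01 and 5.09 CPM. Dok2 had a ratio of 3.32, with 37.9% of the Kit-high counts in 1 cell. Gab1 and the feedback inhibitor Spry1 were lower, at -1.19 and -1.96. The adaptors Shc1 and Sos1 and the phosphatase gene Ptpn11 stayed within 2-fold. In total 9 of 28 genes were at least 2-fold higher and 2 lower, against 13.6% and 8.55% of all genes, with a median of 0.35.

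The erythropoietin arm leaned to the Kit-low cells. Its receptor gene Epor had 201 CPM in Kit-high and 299 CPM in Kit-low cells, and Jak2 10.4 and 32.9 CPM. The STAT5 targets Cish, Pim1 and Bcl2l1 had log2 ratios of -1.82, -1.72 and -1.55, and Erfe, which encodes the iron hormone erythroferrone, -2.50. Stat5a was higher in Kit-high cells, with 79.8 and 22.7 CPM, as were Pim3 and Ccnd2. Tnfrsf13c and Socs3, at -3.88 and -2.24, had 41.7% and 25.6% of their Kit-low counts in 1 cell. Of 14 genes 8 were at least 2-fold lower and 3 higher, against 8.55% and 13.6% of all genes. The median of -1.29 came to -0.71 with the cells thinned to 500000 counts.

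The remaining lists had medians from -0.42 to 0.37, with single genes past 2-fold, and 22.1% of all genes were past 2-fold in either direction. Of 20 genes of cholesterol synthesis 0 were past 2-fold and the median was -0.09. Of 18 glycolysis and hypoxia genes 2 were higher and 0 lower, Hk2 (hexokinase 2) with 68.2 and 7.51 CPM and Pkm with 1901 and 760 CPM. In this list 16 of the 18 were on the higher side, against 4576 of all 7941 genes, with a median of 0.37. Of 16 p53 targets 1 was higher and 3 lower. The higher one, Plk2, had 86.1% of its Kit-high counts in 1 cell, and the median of 0.04 turned to -0.15 under another scaling. Of 9 glucocorticoid receptor targets 1 was higher, Mt1 with 161 and 45.9 CPM, and 2 were lower, Fkbp5 and Tgm2. Of 18 genes of the amino acid and unfolded protein responses 1 was higher, Psat1, and 5 were lower, among them Trib3 at -2.09 and Ddit3 at -2.81 (29.2% of Kit-low counts in 1 cell). Of 9 interferon genes 2 were higher, Bst2 among them, and 1 was lower, Oasl2, with 98.6% of its Kit-low counts in 1 cell. The 8 mitochondrially encoded genes tested stayed within 2-fold, with mt-Co1 at -0.52 and mt-Nd3 at 0.86.

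Markers of other cell types were sparse, apart from megakaryocyte genes. Of 17 neutrophil and monocyte markers 11 had no count in the 96 cells, Elane, Ctsg, Lyz2, S100a8, S100a9 and Ltf among them, and the summed list ranged over 0 to 163 CPM in Kit-high and 0 to 84.7 CPM in Kit-low cells. Of 11 mast cell and basophil markers 10 had no count, Cpa3 and Mcpt8 included. Of 11 macrophage markers 9 had no count, C1qa and Adgre1 included, and the summed list reached 125 CPM in Kit-high and 1.73 CPM in Kit-low cells. Of 12 lymphoid, 10 hepatocyte and 7 endothelial markers 7, 5 and 2 had no count, Cd3e, Alb and Emcn among them. Their summed lists reached 227, 20.05 and 222 CPM in Kit-high cells and 2.08, 10.3 and 1.86 CPM in Kit-low cells, with medians of 0 in each class. For each list 1 cell held 97.1%, 35.9% and 56.2% of the CPM added over Kit-high cells, so these maxima do not describe the class. That share was 61.2% for the neutrophil and monocyte list and 21.1% for the macrophage list. Of 14 megakaryocyte markers 2 had no count and 5 had a mean of at least 10 CPM, and the summed list ranged over 0.779 to 1545 CPM in Kit-high and 5.03 to 1235 CPM in Kit-low cells. For the 30 genes of largest ratio, ratios were recomputed without cells carrying 2 megakaryocyte markers, which kept 8 Kit-high and 20 Kit-low cells. Of these 30 genes 0 turned their sign. The list medians were recomputed too, and that of the progenitor factors is given above. For other single genes the part of the megakaryocyte markers in the ratios was not tested.

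**Figure D3:**
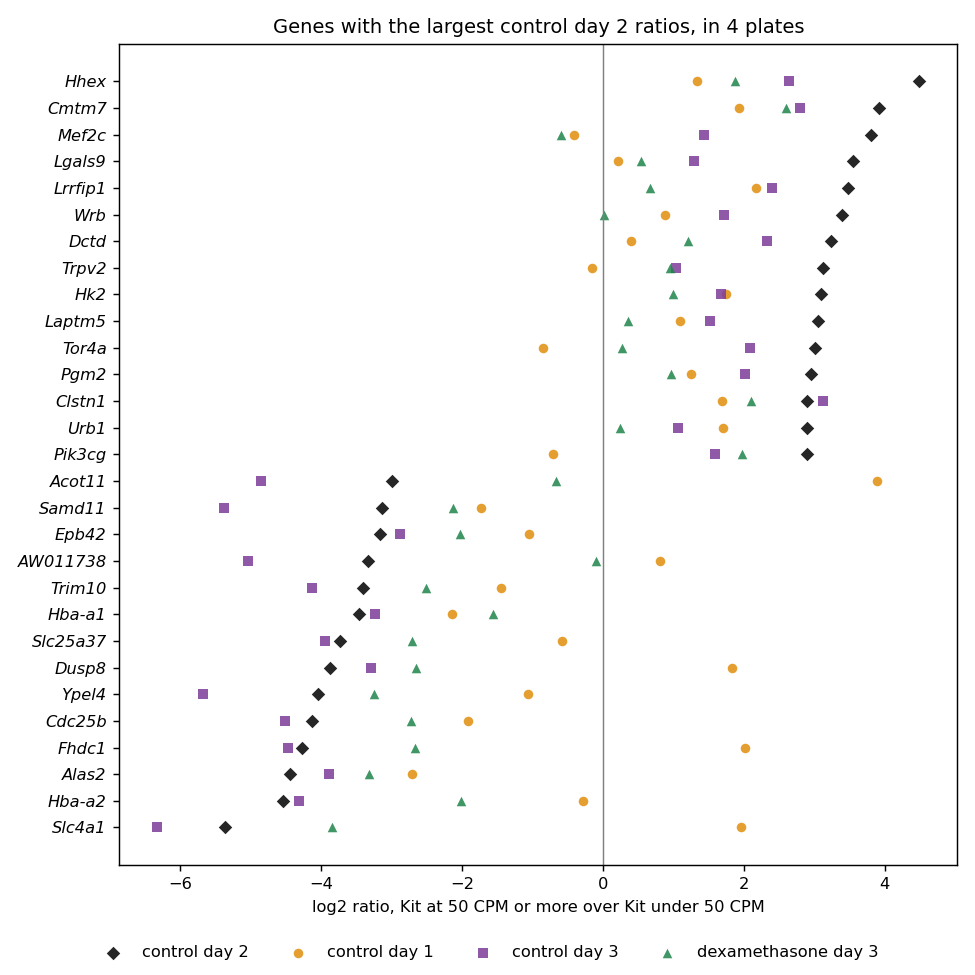
Genes among the 15 highest and 15 lowest day 2 ratios of Kit-high over Kit-low cells, each row showing the log2 ratio of Kit-high over Kit-low sums on the control day 2 plate (black) and on the 3 other plates with at least 5 cells in both classes. Hhex, Cmtm7 and Clstn1 lie right of 0 on all 4 plates and Alas2, Hba-a1, Trim10 and Epb42 left of it; the control day 1 points of Slc4a1, Fhdc1, Dusp8, Acot11 and AW011738 rest on Kit-low sums without a count and are set by the pseudocount.

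The genes with the largest ratios were taken from those with a mean of at least 20 CPM and at most 20% of the higher class's counts in 1 cell. After Hhex, the highest were Cmtm7 (91.9 and 5.63 CPM), Mef2c (78.4 and 5.15 CPM), Lgals9 (galectin 9, 145 and 11.9 CPM) and Lrrfip1 (57.7 and 4.74 CPM), followed by Wrb, Dctd, Trpv2, Hk2, Laptm5, Tor4a, Pgm2, Clstn1, Urb1 and Pik3cg at log2 ratios of 3.39 to 2.89. Laptm5, a lysosomal protein of blood cells, ranged over 0 to 1444 CPM in Kit-high and 0 to 457 CPM in Kit-low cells, so the classes overlapped although the sums were 302 and 35.8 CPM. Mef2c rested more on single cells, since 1 cell held 19.9% of its Kit-high counts. The lowest after Slc4a1 included Hba-a2, Alas2, Fhdc1, Cdc25b, Ypel4, Dusp8, Slc25a37, Hba-a1, Trim10, AW011738, Epb42, Samd11 and Acot11, at -4.53 to -2.99. Fhdc1, a formin that acts on microtubules and actin, had 11.3 and 225 CPM.

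The genes whose level followed Kit most closely across the 96 cells were Cdca7 and Bzw2 (rho of 0.73 and 0.72), then Hhex, Bri3bp, Cmtm7, Slc25a4, Fam136a and Set (0.71 to 0.69). Cdca7 had a median of 253 CPM and a range of 6.24 to 663 in Kit-high cells, and a median of 4.30 CPM and a range of 0 to 347 in Kit-low cells. Every Kit-high cell lay above the Kit-low median of Cdca7. Slc25a4, a mitochondrial exchanger of ADP and ATP, had medians of 296 and 17.02 CPM. Among the most opposed were Slc25a37, Sptb, Hba-a2, Hba-a1, Hbb-bs, Alas2 and Slc4a1 (-0.74 to -0.72). These correlations are descriptions, since the cells share 1 plate and differ in depth. Kit also correlated with the total count of a cell, with a rho of 0.39.

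Promoters were read for the 30 genes of largest ratio, since the genes lower in Kit-high cells include known GATA1 targets. The motif searched was the GATA site AGATAA or TGATAA on either strand, in the 250 bases before each RefSeq start (GRCm38.p6). It was present in 7 of 14 promoters (50%) of the lowest genes, covering 7 of the 12 genes with an entry, in 1 of 22 promoters (4.55%) of the highest genes, covering 14 genes, and in 5452 of 32851 promoters of all genes (16.6%). In the membrane list it was in 6 of 17 promoters and in the ribosome list in 0 of 21. These counts are descriptions, and a match is not a site of binding. The E box CACGTG, the usual MYC motif, was in 0 of 21 promoters of the ribosome list and 0 of the 22 of the highest genes, and in 6.02% of all. In the heme list the GATA motif was in 3 of 13 promoters and the E box in 4 of 13 (30.8%). The motif CCACACCC, a form of the CACC box that KLF1 is known to bind, was in 0 of 14 promoters of the lowest genes, 2 of 22 of the highest, 0 in the heme and membrane lists and 3.20% of all.

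The 4 promoters below show 3 genes that were lower in Kit-high cells with a GATA motif and the gene with the highest ratio, which has none. Letters run 5′ to 3′ on the gene's strand, from RefSeq with build GRCm38.p6, and capitals mark TTATCT, which is AGATAA on the other strand.
Alas2 (chrX:150547167-150547416, plus strand): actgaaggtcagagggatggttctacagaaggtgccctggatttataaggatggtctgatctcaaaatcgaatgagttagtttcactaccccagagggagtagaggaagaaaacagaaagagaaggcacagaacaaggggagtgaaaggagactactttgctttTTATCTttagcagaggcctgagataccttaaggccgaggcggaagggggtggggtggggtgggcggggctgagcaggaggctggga
Epb42 (chr2:121036878-121037127, minus strand): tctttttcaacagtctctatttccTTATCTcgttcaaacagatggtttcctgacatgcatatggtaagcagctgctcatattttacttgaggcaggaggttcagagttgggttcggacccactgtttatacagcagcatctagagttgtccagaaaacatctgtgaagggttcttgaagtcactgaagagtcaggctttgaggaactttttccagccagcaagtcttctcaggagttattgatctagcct
Trim10 (chr17:36869324-36869573, plus strand): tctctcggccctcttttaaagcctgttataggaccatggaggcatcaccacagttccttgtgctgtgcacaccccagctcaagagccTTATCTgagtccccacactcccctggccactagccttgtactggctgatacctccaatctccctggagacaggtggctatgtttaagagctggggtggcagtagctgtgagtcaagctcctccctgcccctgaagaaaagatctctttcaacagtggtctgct
Hhex (chr19:37434591-37434840, plus strand): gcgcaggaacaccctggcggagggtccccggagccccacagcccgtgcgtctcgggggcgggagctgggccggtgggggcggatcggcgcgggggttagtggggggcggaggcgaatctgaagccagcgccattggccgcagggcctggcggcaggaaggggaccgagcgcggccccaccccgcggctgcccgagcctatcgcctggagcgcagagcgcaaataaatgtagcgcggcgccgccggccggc
In Alas2 the motif lies nearer the start of the gene, in Trim10 in the first part of the window and in Epb42 near its far end. The 3 genes had log2 ratios of -4.44, -3.40 and -3.16, and Hhex 4.49.

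The same Kit threshold was then applied to the other plates, whose cells took no part in choosing the 1078 higher and 679 lower day 2 genes. The gene lists were chosen with earlier results of these data known, so list values on these plates are descriptions. The Kit-high share was 84 of 94 cells on control day 1 and 17 of 93 on control day 3, and 91 of 94, 91 of 92 and 69 of 94 on the dexamethasone plates of days 1, 2 and 3. Only control day 1, control day 3 and dexamethasone day 3 held at least 5 cells in both classes, so the 3 other plates compared are these. Of the 1078 genes higher in Kit-high cells on day 2, 578 had a positive ratio on all 3 plates (53.6%), against 35.1% of the 4576 tested genes with any positive day 2 ratio. Of the 679 lower genes 366 were negative on all 3 (53.9%), against 30.1% of 3365. The day 2 sign was found for 70.6% of the higher and 61.6% of the lower genes on control day 1, 85.2% and 91.5% on control day 3, and 80.7% and 86.5% on dexamethasone day 3. The share of all tested genes with each sign was not computed by plate, so these shares have no baseline. The median tested gene lay on the positive side, at 0.03, 0.13 and 0.07 on these plates. On control day 3, 504 of the 1078 were again at least 2-fold higher (46.8%) and 444 of the 679 at least 2-fold lower (65.4%), where all 7941 genes gave 13.6% and 13.5%. On dexamethasone day 3 the shares were 17.4% and 34.6%, against 5.31% and 5.02% of all genes, and on control day 1 they were 19.9% and 14.3%, against 9.37% and 3.63%.

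Markers of neutrophils and monocytes moved with Kit on these plates, at far higher levels than the 6.23 CPM in Kit-high and 0.821 CPM in Kit-low cells of control day 2. Their summed list held 1527 CPM in Kit-high and 57.1 CPM in Kit-low cells of control day 1, 8091 and 346 CPM on control day 3, and 759 and 69.9 CPM on dexamethasone day 3. Mpo was the most abundant of them on control day 3, with 4078 CPM in Kit-high and 130 CPM in Kit-low cells. The comparison was therefore repeated, as a choice made after seeing the data, without cells that carried at least 2 myeloid or 2 mast cell markers at 10 CPM or more. This kept 67 Kit-high and 10 Kit-low cells of control day 1, 13 and 69 of control day 3, and 59 and 22 of dexamethasone day 3, and the summed myeloid list then held at most 13.9 CPM in Kit-high and 57.1 CPM in Kit-low cells. The day 2 sign was then found on all 3 plates for 50.3% of the higher genes and 51.7% of the lower genes, against 34.9% and 28.9% of all genes with a positive or negative day 2 ratio. On control day 3, 42.9% of the higher genes were again at least 2-fold higher and 65.1% of the lower genes at least 2-fold lower, against 13.1% and 14.4% of all genes.

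A test over the sums of these plates, with plate as a block, left 2 residual degrees of freedom and called no gene. The quasi-likelihood test of edgeR gave 0 of 15062 genes an adjusted p under 0.05 (0% in each direction), and the smallest adjusted p was 0.409. At an unadjusted p under 0.05 it gave 829 higher genes (5.50%) and 559 lower genes (3.71%). DESeq2, which sets the spread in another way, called 469 higher (3.11%) and 376 lower (2.50%). A gene without a call is therefore not shown to be level, and the values by plate are given instead. The interaction of Kit class and treatment had 0 genes under an adjusted p of 0.05, with 136 at an unadjusted p under 0.05, and the dexamethasone side of it was 1 plate.

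Alas2 was lower in Kit-high cells on every plate compared. It had 4.90 CPM in Kit-high and 34.7 CPM in Kit-low cells of control day 1, 165 and 2451 CPM on control day 3, and 64.8 and 649 CPM on dexamethasone day 3. The log2 fold change of edgeR over the plates was -3.45 ± 0.305 (SE, 3 plates, adjusted p = 0.435). Cmtm7 was higher on each, with 195 and 50.7 CPM on control day 1, 223 and 31.5 CPM on control day 3, and 159 and 25.9 CPM on dexamethasone day 3. Its edgeR log2 fold change was 2.37 ± 0.215 (SE, 3 plates, adjusted p = 0.435). Without the cells with myeloid or mast cell markers Cmtm7 had 115 and 50.7 CPM on control day 1, 53.4 and 13.3 CPM on control day 3, and 116 and 20.9 CPM on dexamethasone day 3, so its Kit-high level on control day 3 was much lower without them. Alas2 had log2 ratios of -2.58, -3.37 and -3.39 without them. In all kept cells Hhex had 51.996 and 20.3 CPM on control day 1, 62.2 and 9.55 CPM on control day 3, and 57.8 and 15.4 CPM on dexamethasone day 3. Its level in Kit-high cells thus lay between 51.996 and 62.2 CPM on the 3 plates, beside 56.1 CPM on control day 2, 80.8 CPM on dexamethasone day 1 and 129 CPM on dexamethasone day 2. Its log2 ratios without the cells with myeloid or mast cell markers were 0.85 on control day 1, 2.31 on control day 3 and 2.15 on dexamethasone day 3.

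Slc4a1 could be compared only on the later days. Control day 1 had 1.44 CPM in Kit-high cells and no count in the 10 Kit-low cells. Control day 3 had 51.8 CPM in Kit-high and 4174 CPM in Kit-low cells, and dexamethasone day 3 had 109 and 1575 CPM. Srm had 996 and 860 CPM on control day 1, 630 and 179 CPM on control day 3, and 499 and 297 CPM on dexamethasone day 3, a smaller gap on day 1 than on either other plate. Of the 30 genes with the largest day 2 ratios, 20 had the day 2 sign on each of the 3 plates. Mef2c did not, with log2 ratios of -0.40, 1.43 and -0.59 on control day 1, control day 3 and dexamethasone day 3. Hmox1, an iron gene outside these 30, also differed in sign between the plates, at -0.04, -6.33 and 4.58.

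**Figure D4:**
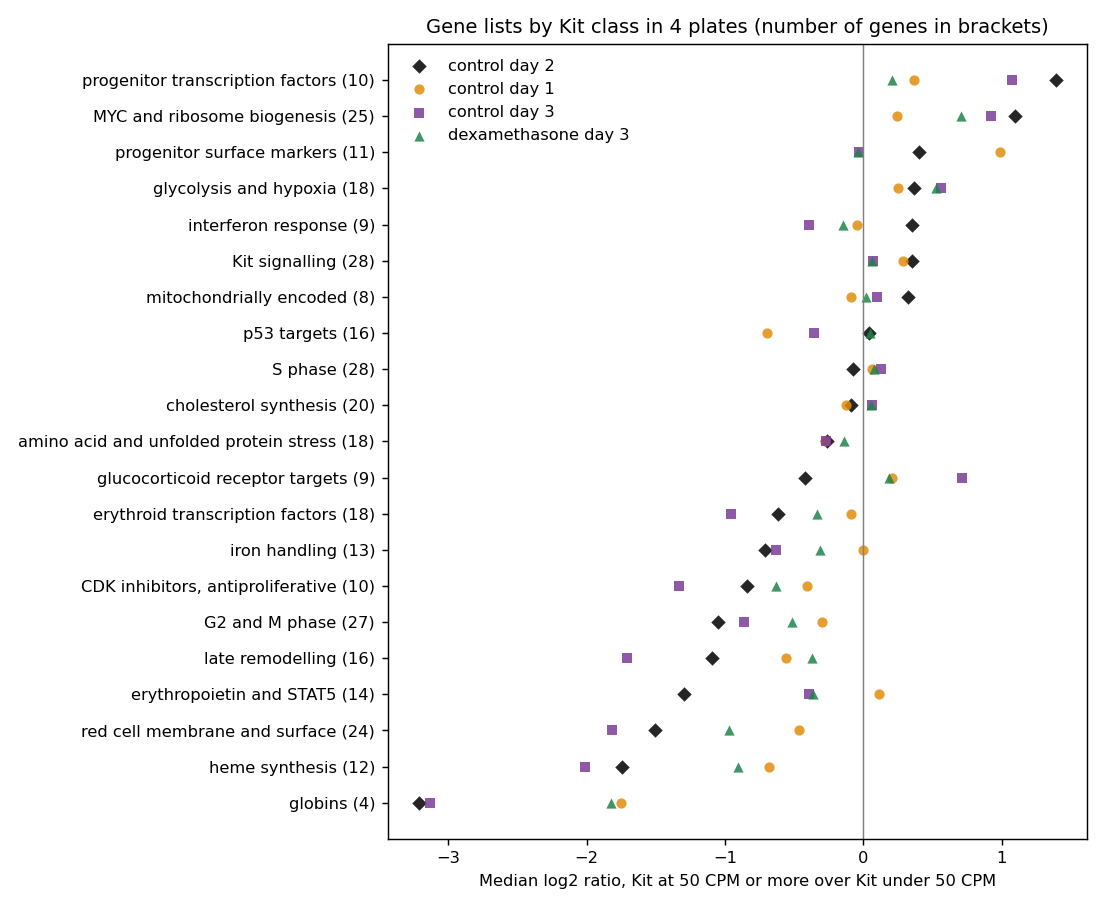
Median log2 ratio of Kit-high over Kit-low sums for 21 gene lists, with the number of genes tested in brackets, on the control day 2 plate (black) and on control day 1, control day 3 and dexamethasone day 3. Globins, heme synthesis and the membrane list lie left of 0 on all 4 plates, ribosome biogenesis, glycolysis and progenitor factors right of it, and control day 1 points lie nearest 0 in many lists.

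Among these 3 plates the red cell groups had their largest list medians on control day 3. The globin median was -1.76 on control day 1, -3.14 on control day 3 and -1.82 on dexamethasone day 3. Heme synthesis had -0.68, -2.02 and -0.91, and the membrane list -0.47, -1.81 and -0.97. G2 and mitosis genes had -0.30, -0.86 and -0.52, and 17 of the 27 had an unadjusted p under 0.05 with a lower level in Kit-high cells. Ribosome biogenesis had 0.24, 0.92 and 0.71, and 15 of its 25 genes had an unadjusted p under 0.05 with a higher level. The median gene of each plate was at 0.03, 0.13 and 0.07. For heme synthesis, 9 of 12 genes had an unadjusted p under 0.05 on the lower side, and for the membrane list 16 of 24, against 3.71% of all genes tested. Progenitor factors had 0.37, 1.08 and 0.20, with Myb at 1.62, 3.91 and 2.29. The Kit signalling list had small medians, at 0.28, 0.07 and 0.06, while 6 of its 28 genes had an unadjusted p under 0.05 on the higher side and 0 on the lower, against 5.50% and 3.71% of all genes. The counts of p and the single-gene ratios of this paragraph are from all kept cells, those with myeloid or mast cell markers included. With those cells left out the Kit signalling medians were 0.30, 0.07 and 0.31. Lyn had ratios of 0.28, 0.45 and 0.11, far from its day 2 ratio of 2.10. Glucocorticoid receptor targets, negative on control day 2 at -0.42, were positive at 0.21, 0.71 and 0.19. Megakaryocyte markers had -2.53, -1.47 and -1.67 on the other plates and -0.49 on control day 2. With myeloid and mast cell marker cells left out, their medians were -2.51, -0.38 and -0.69. Their summed list was then lower in Kit-high cells of control day 1 (498 and 2475 CPM) and dexamethasone day 3 (370 and 395 CPM). It was higher on control day 3 (327 and 246 CPM), and on control day 2 it was also higher (434 and 308 CPM). Without the cells with myeloid or mast cell markers the medians on control day 1, control day 3 and dexamethasone day 3 were -1.49, -2.63 and -1.89 for globins, -0.47, -1.68 and -0.98 for heme synthesis, -0.25, -1.45 and -1.03 for the membrane list, 0.32, 1.06 and 0.69 for ribosome biogenesis, and 0.05, 0.84 and 0.89 for progenitor factors.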

How the data were processed

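Each of 6 plates held 96 wells with the polyA RNA of 1 sorted cell each. The deposited values are whole-number read counts per gene, which the authors made with featureCounts and STAR 2.4 on GRCm38, per the submitters' processing notes. The sources used here do not give the strand setting, the annotation or the handling of reads with several positions, so near-identical copies and antisense partners are uncertain. The table's header has 1 empty field; without it each remaining name was matched to a well, and 1 of 576 value columns matched none and was not used. As a check of this reading, the glucocorticoid target Mt2 had summed levels of 66.2, 164 and 76.5 CPM on the dexamethasone plates of days 1, 2 and 3, against 7.00, 3.29 and 0.926 CPM on the control plates.

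Wells with at least 50000 counts, at least 1500 genes and at most 20% mitochondrial counts were kept, 563 of 575, and all 96 of control day 2. Wells were filled by a sorter and no doublet caller was run. CPM used the total gene count. Counts were summed by class, with exact Poisson 95% intervals and log2 ratios at a pseudocount of 0.5 CPM. No molecular identifiers are stated, so intervals cover counting error only. Other plates were tested with edgeR 4.0.16 (quasi-likelihood, TMM, Benjamini-Hochberg) in R 4.3.3, and with DESeq2 1.42.0 as an alternative, whose adjusted p was not given for 2045 genes. The edgeR step was tested on simulated data.

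The text names list members with a mean of at least 10 CPM, chiefly the 3 with the largest ratio in the direction of the list's median; the 15 highest and 15 lowest ratios among genes with a mean of at least 20 CPM and at most 20% of the higher class's counts in 1 cell; and the 8 highest and 8 lowest rank correlations with Kit. A few items that these rules name are not reported here. Other list members named were chosen after their values were seen. The members and lists were chosen with earlier results of these data known. Positions are from GENCODE on GRCm38. Alternatives for thresholds, scaling, filters, depth, cells and plates are given in the closing section.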

Additional observations from a re-analysis of the deposited data

How the results depend on the processing

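On control day 2 the counts of 1078 higher and 679 lower genes were 2497 and 1447 with a filter at a mean of 1 CPM, and 336 and 368 with one at 50 CPM, where more or fewer genes enter. Without cells carrying at least 2 markers of 1 of 3 other lineages (8 Kit-high and 20 Kit-low cells left) they were 1026 and 1040, and the median log2 ratio of the progenitor factors was reversed to -0.021 in place of 1.39. The cause was not tested. Under the other settings, among them Kit thresholds of 25 and 100 CPM, TMM, a pseudocount of 2 CPM and thinning to 500000 counts, each count stayed within 1.5 times. Without the 3 cells with Gata1 under 20 CPM, a choice made after seeing the data, they were 984 and 687. Of 307 recomputed day 2 list medians, 292 stayed within 1.5 times of the reported fold, 14 moved further and 1, that of the progenitor factors, was reversed. A change of sign was counted as reversed only for reported medians of at least 1 in size. Of 420 recomputed day 2 ratios of the 30 genes of largest ratio, 234 lay outside the counting interval of the reported ratio and 186 within it, and 0 turned their sign.

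On the other plates DESeq2 called 469 higher and 376 lower genes, edgeR on genes with a mean of at least 10 CPM called 5 and 1, and edgeR called 0 in each direction under every other setting run. Leaving out 1 plate in turn gave 0 to 0 calls. Leaving out cells with markers of 3 lineages was not run there, since no plate kept 5 cells in both classes. No paired analysis was possible because the numbers that samples share across plates only name wells within a plate. The plate itself pairs the classes in the edgeR fit, which called 0 genes with and without that block.

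All day 2 values come from 1 plate, and Kit-low cells had fewer counts per cell.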
